A study of Mus musculus with 2 samples.

Results

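The 10 genes described here make and modify fatty acids: Fasn, Acaca, Acly, Acss2, Scd1, Scd2, Elovl6, Fads1, Fads2 and Me1. They were taken from the table of 16803 genes by exact gene symbol, and all 10 were found. Total RNA came from the established line NE4C, neural stem cells of the mouse, grown in Eagle MEM on plates coated with poly-L-lysine. The control was 1 library from normally cultured cells. The HTL treatment was 1 library from cells given homocysteine thiolactone (HTL), the reactive ring form of homocysteine, which can attach to lysine side chains of proteins. The dose and duration of HTL for these cultures are not stated. The methods describe a period in serum-poor medium before HTL for the protein modification experiments, and whether it was used for the sequenced cultures is not stated either. With 1 library per condition there is no replicate check, so every interval and p-value below covers counting error between these 2 libraries only. The reads carry no molecular identifiers and so cannot be taken as independent molecules.

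Fatty acid synthesis turns citrate from mitochondria into long saturated chains in the cytosol. Acly splits citrate to acetyl-CoA, Acss2 makes acetyl-CoA from acetate, Acaca converts it to malonyl-CoA, and Fasn builds palmitate with NADPH that comes in part from Me1. Elovl6 lengthens the saturated product, Scd1 and Scd2 put the first double bond into it, and Fads1 and Fads2 add further double bonds to polyunsaturated chains. In many tissues transcription of these genes is controlled by the sterol regulatory element binding proteins (SREBPs, encoded by Srebf1 and Srebf2), by the liver X receptors and by the carbohydrate response factor Mlxipl. Neural progenitors depend on this pathway for membrane lipids, and Scd2 is known as the main stearoyl-CoA desaturase of the developing brain.

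The libraries held 10350665 control and 9102076 HTL treatment reads, after the estimated counts were rounded. Genes with a sum of 10 or more reads over both libraries were tested, which left 13442, and the median log2 ratio of HTL treatment to control among them was -0.14. Scaling by TMM instead of column totals raised every log2 ratio by 0.13, the median of ratios raised it by 0.14 and the upper quartile by 0.093. The calls, defined below, were 378 higher and 1072 lower, and became 552 and 800 under TMM, 559 and 788 under the median of ratios and 498 and 860 under the upper quartile. Of the 12 neural stem cell markers, Sox2 (34.7 and 12.6 FPKM in control and HTL treatment), Vim (78.5 and 38.8) and Sox1 (1.14 and 0.32) were called lower and Notch1 (1.24 and 2.63) higher, while Nes stood at 25.1 and 24.1 FPKM and Fabp7 at 0.26 and 0.30. Their summed level was 226 FPKM in the control and 166 in the HTL treatment library. The 8 neuron markers summed to 38.0 and 52.0 FPKM, most of it from Tubb3 (16.3 and 24.8) and Stmn2 (15.7 and 23.2), while Dcx was called lower (88 and 29 reads, log2 ratio -1.40), Neurod1 stood at 0.27 and 0.04, and 4 of the 7 tested lay below 0 with a median of -0.60. The 4 astrocyte markers of the table summed to 18.9 and 20.1, most of it from Slc1a3 (18.16 and 18.13), with Aldh1l1 called higher (0.65 and 1.97) and Gfap at 0.07 and 0.01 on 2 and 0 reads, and the 7 oligodendrocyte lineage markers to 4.86 and 5.11, with Sox10 at 0.01 and 0.08. The value 0.01 is the lowest FPKM of the table and stands where a library had 0 reads of Gfap or Sox10. The part of these marker differences in the results below was not tested.

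The 4 desaturase genes lie in clusters on mouse chromosome 19. Scd2 (chr19:44368166-44381354, plus strand, NCBIM37) and Scd1 (chr19:44468941-44482199, minus strand) are 87.6 kb apart, with Scd4 between them. Fads2 (chr19:10138654-10175993, minus strand) and Fads1 (chr19:10257378-10271360, plus strand) are 81.4 kb apart. Their coding sequences differ in how well reads can be told apart. Scd1 and Scd2 are identical at 90.4% of 1068 aligned coding bases, and Fads1 and Fads2 at 67.7% of 1328. The longest stretch that the Scd1 and Scd2 coding sequences share without a mismatch is shown because a read from it fits both genes. It runs over 147 bases, from base 523 to 669 of the Scd1 coding sequence and from 532 to 678 of that of Scd2, in the GENCODE transcripts of NCBIM37.
Scd1 and Scd2 shared run: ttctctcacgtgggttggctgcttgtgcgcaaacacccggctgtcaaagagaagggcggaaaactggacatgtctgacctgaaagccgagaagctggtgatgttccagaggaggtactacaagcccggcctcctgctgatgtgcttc

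Of all windows of 50 bases in the Scd1 transcript, 4.66% occur unchanged in a transcript of another gene, most often Scd3 and Scd2, and for Scd2 the share is 3.79%. It was 0.779% for Elovl6 and 0.343% for Fads2, and no shared window was found for the other 6 genes. Estimated counts of 4 members, Scd1, Scd2, Fads2 and Elovl6, were fractional, as happens where reads are divided between transcripts. Exons of Acaca, Acss2 and Me1 overlap a gene annotated in the reverse direction, and those of Scd2 a gene in the same direction. The sources do not say if strand was used in counting, which leaves the reads of these genes uncertain to that extent.

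Promoter sequence from RefSeq (GRCm38.p6) was found for 7 of the 10 genes. There was no entry for Scd1, Scd2 and Fads1. The 250 bases before the start site are shown for 3 genes that stand for the 3 kinds of result described below: Fads2 (chr19:10101504-10101753, minus strand), whose level was higher after HTL, Fasn (chr11:120824548-120824797, minus strand), whose level hardly differed, and Elovl6 (chr3:129532136-129532385, plus strand), whose level was lower. Capitals mark matches, on either strand, to a CCAAT box (CCAAT) or a GC box (GGGCGG). The sterol regulatory element (TCACNCCAC) and the E-box (CACGTG) were searched too.
Fads2: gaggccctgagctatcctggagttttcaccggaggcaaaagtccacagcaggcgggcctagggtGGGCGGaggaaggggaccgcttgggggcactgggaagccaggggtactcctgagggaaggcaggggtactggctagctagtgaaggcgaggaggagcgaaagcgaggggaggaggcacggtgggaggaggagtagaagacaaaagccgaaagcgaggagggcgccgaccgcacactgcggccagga
Fasn: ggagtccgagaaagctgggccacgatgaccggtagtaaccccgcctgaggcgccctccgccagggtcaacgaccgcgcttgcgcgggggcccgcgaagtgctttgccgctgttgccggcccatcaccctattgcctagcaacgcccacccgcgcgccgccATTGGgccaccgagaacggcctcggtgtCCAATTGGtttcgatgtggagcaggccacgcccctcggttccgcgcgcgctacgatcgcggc
Elovl6: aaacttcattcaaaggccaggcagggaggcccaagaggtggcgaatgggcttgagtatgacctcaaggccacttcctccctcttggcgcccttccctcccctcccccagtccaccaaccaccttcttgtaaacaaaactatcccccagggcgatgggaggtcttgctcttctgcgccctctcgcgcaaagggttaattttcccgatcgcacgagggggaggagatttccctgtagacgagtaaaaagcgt

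The Fads2 window held 1 GC box, at positions -186 to -181 from the start site. The Fasn window held 3 CCAAT matches, of which the pair at -62 to -58 and -59 to -55 overlap on opposite strands. The Elovl6 window held none of the 4 motifs. No window of the 8 listed for the 7 genes held the sterol regulatory element or the E-box letters. Among all 32851 promoter windows of the same length, 1.05% held the sterol regulatory element, 6.02% the E-box, 33.8% a CCAAT box and 32.7% a GC box. These are matches of letters in a short window and not measured binding, and the start sites in use in NE4C cells were not determined.

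The comparison asked which steps of the pathway differed in RNA level after HTL. The 4 desaturase genes were higher after HTL, by 1.57-fold for Scd2 to 2.13-fold for Scd1. The genes of the central steps, Acaca and Fasn, lay at 0.903 and 0.957 times the control, and the elongase gene Elovl6 at 0.668 times. A gene was called when its log2 ratio was 1 or more in size and its adjusted p (exact binomial test) did not exceed 0.001. Of the 10 genes 1 was called higher, where 2.81% of all genes tested were called higher, and 0 were called lower, where 7.98% of all genes were; in either direction 10.8% were called. By the adjusted p alone, without the cutoff on the ratio, 5 of the 10 genes were higher against 14.5% of all genes, and 1 was lower against 24.1%, which together is 6 of 10 against 38.6%. These 6 were also past the adjusted p under each of the 3 other scalings. The median log2 ratio of the 10 genes was 0.26, beside -0.14 for all genes tested.

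**Figure D1:**
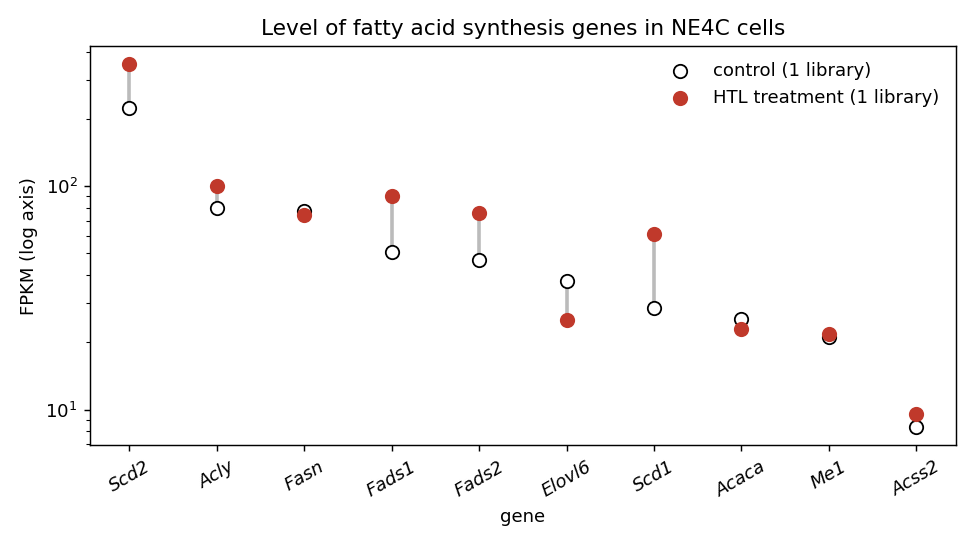
Level of each of the 10 genes in FPKM on a log axis, with the control library as an open circle and the HTL treatment library as a filled one, ordered by the control level. Scd2 stands highest in both libraries (225 and 352 FPKM) and Acss2 lowest (8.35 and 9.52), and the lines are longest for Scd1 and the Fads genes.

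Of the desaturase genes, Scd1 had the highest ratio. Scd1 (gene ID 20249) had 1450 control and 2718 HTL treatment reads, or 28.6 and 60.9 FPKM. The log2 ratio of Scd1 was 1.09, with an exact Clopper-Pearson 95% interval of 0.999 to 1.18 and a Benjamini-Hochberg adjusted p of 1.60e-124 (exact binomial test). It was the only one of the 10 that was called, and the lower end of its interval lies just under the cutoff.

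Scd2 (gene ID 20250) had 12822 and 17678 reads, or 225 and 352 FPKM. Its log2 ratio was 0.65 (0.62 to 0.68). Scd2 held rank 290 of 16803 genes by FPKM in control and rank 195 after HTL, and its FPKM was 7.85 times that of Scd1 in the control and 5.77 times in the HTL treatment library. Scd1 gave 10.2% of the reads of both genes in the control (Wilson 95% interval 9.67 to 10.7) and 13.3% in the HTL treatment library (12.9 to 13.8). The difference between the log2 ratios of Scd1 and Scd2 was 0.44 (0.35 to 0.54; adjusted p = 6.02e-19, Fisher's exact test over 45 pairs of the 10 genes).

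The other members of the Scd cluster were nearly silent. Scd3 had 28 and 17 reads (0.77 and 0.53 FPKM), and Scd4 had 0 reads in the control and 1 in the HTL treatment library, at or under the 3 reads that a count of 0 allows. With the reads of Scd1 to Scd4 summed, the log2 ratio was 0.70 (0.67 to 0.73), short of the cutoff of the call, and Scd2 gave most of these reads.

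The Fads genes, which act in the making of polyunsaturated fatty acids, were higher by similar amounts. Fads1 (gene ID 76267) had 1830 and 2875 reads, or 50.5 and 90.1 FPKM, and a log2 ratio of 0.84 (0.75 to 0.92). Fads2 (gene ID 56473) had 723 and 1031 reads, or 46.6 and 75.5 FPKM, and a log2 ratio of 0.70 (0.56 to 0.84). Both passed the adjusted p (1.46e-84 and 1.08e-22, exact binomial test, Benjamini-Hochberg) and fell short of a log2 ratio of 1, under each of the other 3 scalings too. Their ratios differed by 0.14 (-0.021 to 0.30; adjusted p = 0.103, Fisher's exact test), so a difference between the neighbours was not detectable at this depth. Fads3, the related gene beside Fads2, had 54 and 61 reads, for a ratio on the log2 scale of 0.36 (-0.19 to 0.92).

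Of the genes that supply acetyl-CoA, Acly was higher by 1.25-fold and Acss2 did not pass the test. Acly (gene ID 104112; chr11:100337667-100389314, minus strand, NCBIM37) had 3690 and 4063 reads, or 79.88 and 100.03 FPKM, and a log2 ratio of 0.32 (0.26 to 0.39; adjusted p = 5.25e-22, exact binomial test, Benjamini-Hochberg). Acss2 (gene ID 60525; chr2:155343684-155411460, plus strand) had 246 and 247 reads, the lowest of the 10 genes, and its log2 ratio was 0.19 (-0.069 to 0.45; adjusted p = 0.215, exact binomial test). Its interval spans 0 and takes in the ratio of Acly.

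The chain-building enzymes lay close to the control. Fasn (gene ID 14104; chr11:120667254-120685492, minus strand), the fatty acid synthase, had 8097 and 6816 reads, or 77.6 and 74.2 FPKM, and a log2 ratio of -0.063 (-0.11 to -0.016; adjusted p = 0.0162, exact binomial test). Under TMM, the median of ratios and the upper quartile the sign was the opposite (0.067, 0.073 and 0.030), so Fasn has no direction that holds across scalings. Acaca (gene ID 107476; chr11:83943174-84215153, plus strand), which makes malonyl-CoA, had 2426 and 1927 reads, or 25.5 and 23.0 FPKM, and a log2 ratio of -0.15 (-0.23 to -0.060; adjusted p = 0.00215, exact binomial test). Set against the median of all genes, Fasn lay at 0.074 and Acaca at -0.0093. Acacb, the paralog whose product sits at mitochondria, had 1.82 and 1.21 FPKM, so that Acaca was 14.0 and 19.0 times as abundant per length.

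Me1 (gene ID 17436; chr9:86474970-86589947, minus strand), the cytosolic malic enzyme that yields NADPH, had 715 and 654 reads, or 21.1 and 21.9 FPKM. Its log2 ratio was 0.057 (-0.098 to 0.21; adjusted p = 0.576, exact binomial test).

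Elovl6 (gene ID 170439; chr3:129235304-129341413, plus strand), the elongase that acts between Fasn and the Scd desaturases, was the only member lower past the adjusted p. It had 2347 and 1378 reads, or 37.7 and 25.1 FPKM, and a log2 ratio of -0.58 (-0.68 to -0.49; adjusted p = 2.94e-32, exact binomial test, Benjamini-Hochberg). It stayed below 0 under the other 3 scalings (-0.49 to -0.45), and lay at -0.45 against the median of all genes.

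**Figure D2:**
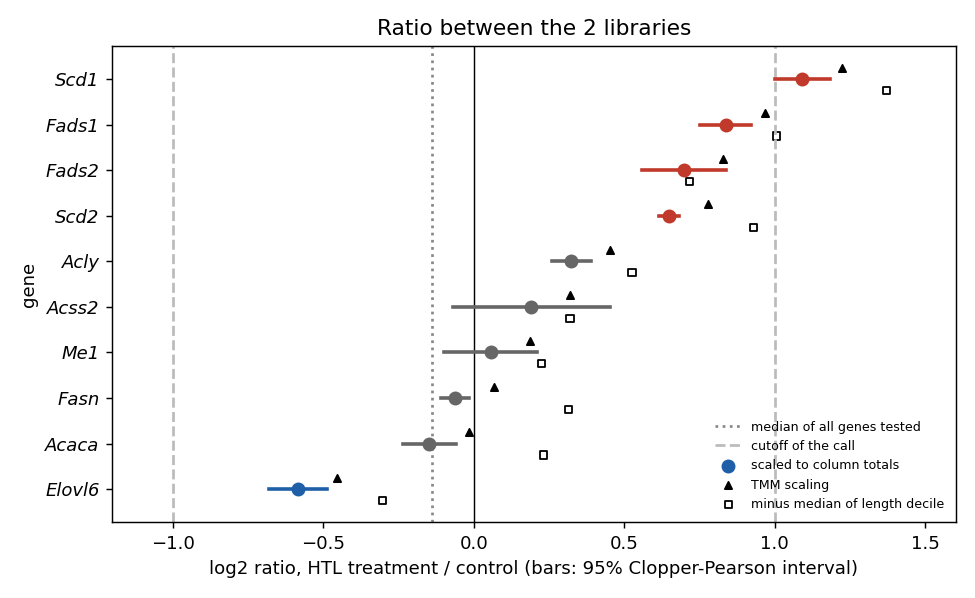
Log2 ratio of HTL treatment to control for each gene, with circles and 95% Clopper-Pearson bars for scaling to column totals (red for desaturases, blue for Elovl6, grey for the rest), triangles for TMM and open squares for the ratio minus the median of genes of similar length. Scd1, at 1.09, is the only circle past the dashed cutoff at 1, and Elovl6, at -0.58, is the lowest gene by all 3 symbols.

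Differences between the genes do not depend on how the libraries are scaled. They were not corrected for the trend with transcript length given below. Relative to genes of similar length, Scd2 (0.93) lay above Fads2 (0.72) and Fasn (0.31) above Me1 (0.23), the reverse of their order here. Each pair of the 10 genes was compared by Fisher's exact test on the reads, and 35 of 45 pairs passed an adjusted p of 0.001. All 24 pairs of a desaturase with one of the other 6 genes were among them, with differences in log2 ratio from 0.32 (Scd2 and Acly) to 1.67 (Scd1 and Elovl6). Elovl6 differed from each of the 5 other non-desaturases by 0.44 to 0.91. Among the desaturases themselves 4 of 6 pairs passed, and Fads2 did not differ from Scd2 beyond counting error (0.048, -0.093 to 0.19; adjusted p = 0.502, Fisher's exact test). Among Acly, Acss2, Me1, Fasn and Acaca 2 of 10 pairs passed, those of Acly with Fasn (0.39) and with Acaca (0.47). In the order of the ratios without regard to length, the neighbours that could not be separated were therefore Fads1 and Fads2, Fads2 and Scd2, Acly and Acss2, Acss2 and Me1, Me1 and Fasn, and Fasn and Acaca.

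**Figure D3:**
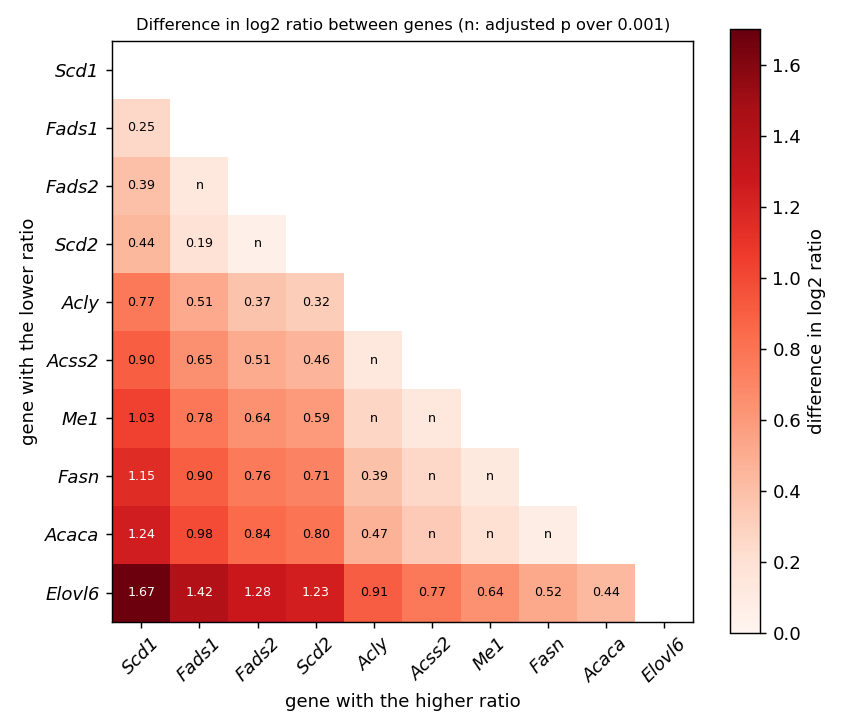
Difference in log2 ratio for each of the 45 pairs of genes, as the gene on the horizontal axis minus the gene on the vertical axis, in order of the ratio, with darker red for a larger difference. The letter n marks the 10 pairs with an adjusted p over 0.001 in Fisher's exact test, and all squares that pair a desaturase with another gene carry a value.

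The make-up of the pathway's reads differed accordingly. The 10 genes took 0.332% of all reads in the control library (Wilson 95% interval 0.328 to 0.335) and 0.433% in the HTL treatment library (0.428 to 0.437). The 4 desaturases took 0.163% and 0.267% of all reads, while the other 6 genes took 0.169% and 0.166%. Of the reads of the 10 genes, the desaturases made up 49.0% in the control (48.5 to 49.5) and 61.7% in the HTL treatment library (61.2 to 62.2). Most of these desaturase reads came from Scd2, which alone made up 37.3% and 44.9% of the reads of the 10 genes.

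Transcript length went with the ratio across all genes, which bears on the long transcripts here. Spearman's rho of length with log2 ratio was -0.18 over the 13442 genes, a description across genes that are no replicates of each other. Fasn (9938 bases) and Acaca (9054 bases) lie in the longest of 10 length bins, whose median log2 ratio was -0.38, and Scd1 (4844 bases), Scd2 (5453 bases) and Elovl6 (5951 bases) in the next, with -0.28. Fads2 (1508 bases) lies in the second shortest, with -0.019. Relative to the median of genes of similar length, the log2 ratio was 1.37 for Scd1, 1.00 for Fads1, 0.93 for Scd2, 0.72 for Fads2, 0.53 for Acly, 0.31 for Fasn, 0.23 for Acaca and -0.30 for Elovl6. On that scale Fads1 also reached the cutoff, and Fasn and Acaca lay above 0.

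**Figure D4:**
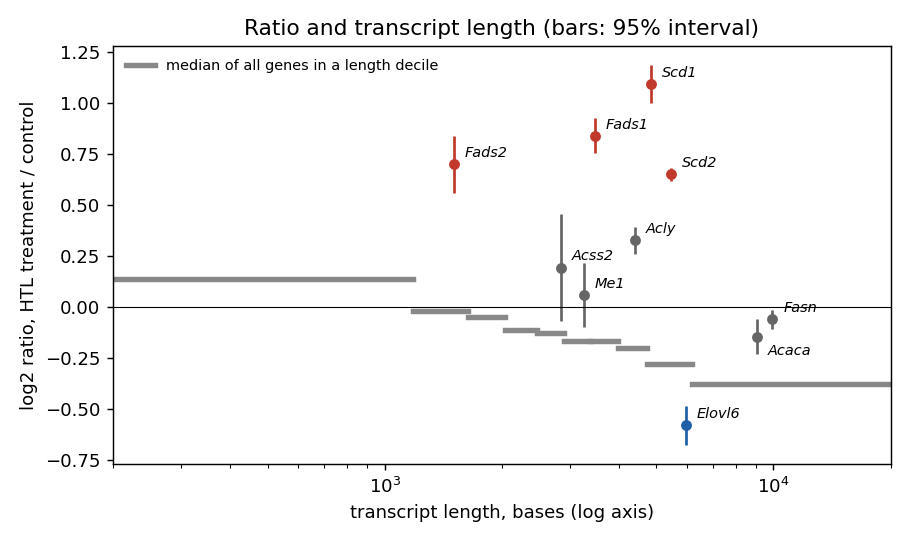
Log2 ratio of HTL treatment to control against transcript length in bases (log axis), with 95% Clopper-Pearson bars for the 10 genes and grey bars for the median of all genes in each of 10 length bins, the shortest and longest of which run past the axis. The grey bars fall from 0.14 to -0.38, the desaturases (red) and Acly lie far above them at every length, and Elovl6 (blue) lies below.

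Genes around the pathway were compared by lists written from general knowledge, beside the background of 14.5% higher and 24.1% lower by the adjusted p alone. Of 17 other elongation and desaturation genes tested, 4 were higher by the adjusted p, 0 were lower and 0 were called, with a median log2 ratio of 0.19 (0.41 with no filter on reads). The 4 were Hsd17b12 (0.46) and Tecr (0.51), which carry out later steps of each elongation round, the elongase gene of very long chains Elovl4 (0.71) and the electron transfer gene Cyb5r3 (0.46). Elovl5, which lengthens polyunsaturated chains, stood at 1402 and 1355 reads (0.14), while Elovl6 was lower. Other desaturase genes of the list were not higher: Degs1 stood at 844 and 717 reads (-0.050) and Fads6 at 8 and 6 (-0.21). The electron transfer genes Cyb5a (-0.015) and Cyb5b (0.11) did not pass the adjusted p. The genes of this list named here, and Slc25a1, Lpcat3, Gpam, Plin3, Mbtps2 and Acadm below, were picked for mention after their values had been seen.

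Of 17 genes tested for acyl-CoA, acetyl-CoA and malonyl-CoA supply, 4 were higher by the adjusted p and 1 lower, with a median of 0.055 (0.17 at a mean of 50 or more reads). Aacs, which activates acetoacetate for lipid synthesis in the cytosol, had 124 and 303 reads (3.75 and 10.4 FPKM) and was called higher at a log2 ratio of 1.47 (1.17 to 1.79), a call lost in edgeR's exact test with an assumed coefficient of variation of 0.2 (adjusted p = 0.0262). Mid1ip1, whose product promotes the polymerization of Acaca, was higher too, with 274 and 402 reads and a log2 value of 0.74 (0.51 to 0.97). Slc25a1, the citrate carrier that feeds Acly, was lower at 504 and 302 reads, a log2 ratio of -0.55. Of the 7 cytosolic NADPH genes other than Me1, 3 were higher and 1 lower by the adjusted p, with a median of -0.048 that turned positive under the other 3 scalings. Aldh1l1, a folate enzyme that is also an astrocyte marker, was called higher on few reads (21 and 56; log2 ratio 1.58, 0.85 to 2.40). The call was lost with FPKM + 1 (0.85) and, in edgeR's exact test, with an assumed coefficient of variation of 0.1 (adjusted p = 0.00113). None of the 8 genes of the separate mitochondrial fatty acid synthesis passed the adjusted p in the exact binomial test in either direction (4 of them lay at an unadjusted p of at most 0.05), and their median was -0.31.

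Among the transcription factors of lipid synthesis and their partners, 5 of 23 genes were higher and 4 lower by the adjusted p, a share near the 38.6% of all genes tested. Srebf1, the SREBP gene tied most closely to fatty acid synthesis, had 933 and 823 reads, 20.6 FPKM in each library and a log2 ratio of 0.0045 (-0.13 to 0.14). Srebf2, tied to sterol synthesis, was higher, at 2079 and 3103 reads, with a log2 value of 0.76 (0.68 to 0.84; adjusted p = 8.09e-78, exact binomial test, Benjamini-Hochberg). Insig1, which retains SREBPs in the endoplasmic reticulum and is itself a SREBP target, was higher as well, at 485 and 763 reads, with a log2 value of 0.84 (0.67 to 1.01). Scap, the SREBP escort, had 380 and 248 reads and lay at -0.43 (-0.67 to -0.20), with an adjusted p of 0.000711 in the exact binomial test that missed the cutoff with the other scalings (0.0224 by TMM, 0.0248 by median of ratios, 0.00943 by upper quartile). The protease gene Mbtps2 was lower (223 and 101 reads, -0.95). The liver X receptor gene Nr1h2 (263 and 223 reads) and Mlx (391 and 329 reads), the partner of Mlxipl, had log2 ratios of -0.052 and -0.064, both above 0 under the other 3 scalings. Nr1h3 (9 and 16 reads) and Mlxipl (34 and 13 reads) had few reads and did not pass the adjusted p. Scap is among the 4 lower genes. None of the 23 was called, and their median was -0.052, which was above 0 under the other 3 scalings.

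Sterol synthesis, the other branch under SREBP control, stood higher. Of its 21 genes 16 were higher and 2 lower by the adjusted p, 4 were called higher, and the median log2 ratio was 0.80, against 0.26 for the 10 fatty acid genes. Cyp51, the lanosterol demethylase, was called higher at 2.39 (2.29 to 2.49; 969 and 4470 reads), above each of the fatty acid genes. The log2 ratios of all 10 fatty acid genes (-0.58 to 1.09) lay inside the range of the sterol genes (-0.74 to 2.39), those of Scd1 and Fads1 above the sterol median and those of the other 8 below it. The difference between the lists was not tested.

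Fatty acid oxidation and the use of fatty acids in lipids were compared last. Of 22 oxidation genes tested 4 were higher and 2 lower by the adjusted p, and 15 lay above 0 and 7 below, with a median of 0.19 beside -0.14 for all genes. Eci2, an enoyl-CoA isomerase for unsaturated chains, was called lower at 177 and 53 reads (-1.55, -2.03 to -1.10), a call also lost at an assumed coefficient of variation of 0.2 (adjusted p = 0.0299, edgeR's exact test). Acadm, a dehydrogenase of medium chains, reached -0.999 at 962 and 423 reads, just short of the cutoff. Of 28 glycerolipid and phospholipid genes 7 were higher, 2 lower and 0 called, with a median of 0.066. Lpcat3, which places polyunsaturated chains in phospholipids, was higher (533 and 740 reads, 0.66), while Gpam, the mitochondrial enzyme of the first step of glycerolipid synthesis (316 and 157 reads, -0.82), and the lipid droplet coat gene Plin3 (727 and 349 reads, -0.87) were lower.

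**Figure D5:**
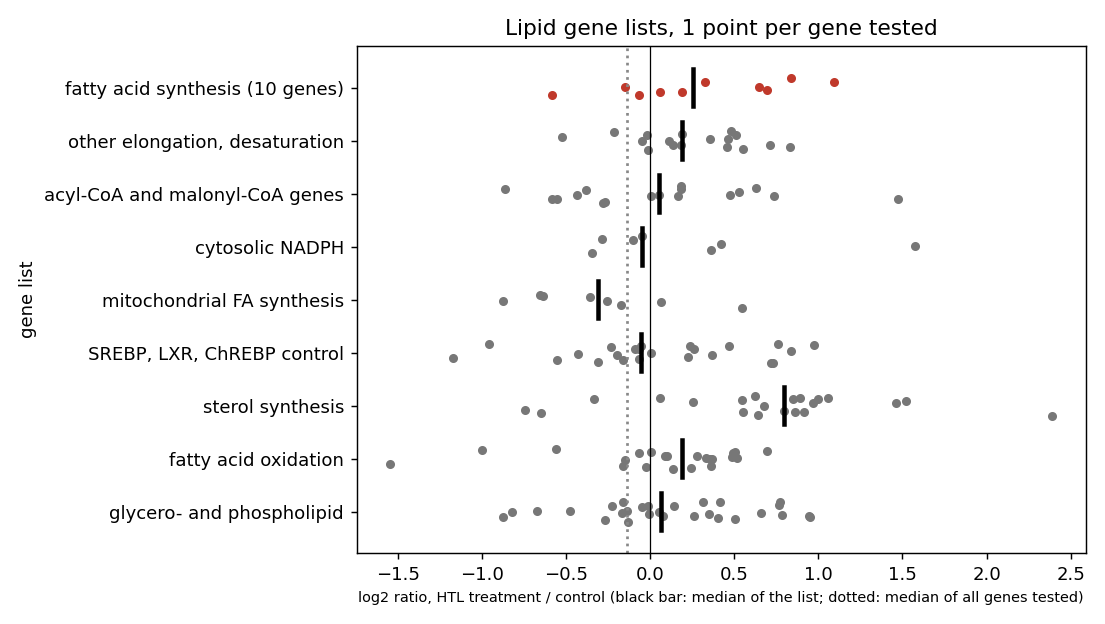
Log2 ratio of HTL treatment to control for each gene tested in 9 lists of lipid genes, 1 point per gene, with a black bar at the median of each list and a dotted line at the median of all genes tested (-0.14). The 10 fatty acid genes (red) spread from -0.58 to 1.09, and the sterol synthesis genes have the highest median (0.80).

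These differences are between 2 libraries, and the spread between cultures was not measured. When edgeR's exact test was given a variation between cultures of 0.1 (coefficient of variation, assumed), 2 of the 10 genes, Scd1 and Fads1, kept an adjusted p under the cutoff (6.10e-06 and 0.000715), and with 0.2 none did (0.115 for Scd1, 0.284 for Fads1 and 0.527 for Elovl6, all by that test). By the same test Srebf2 (adjusted p = 0.00225), Insig1 (0.00147) and Mid1ip1 (0.00971) missed the cutoff at 0.1. Cyp51 kept its call at 0.2 (adjusted p = 1.29e-05, edgeR's exact test) and lost it at 0.4 (0.877).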

How the data were processed

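Per the labels, NE4C total RNA was turned into libraries by an Illumina TruSeq kit and read by BGISEQ protocols, and mm9 is named in the submitters' processing notes. The authors deposited 1 table of 16803 genes with reads per gene estimated by RSEM (estimated counts, not normalized), FPKM scaled by the authors to length and library size, transcript length, and their own log2 ratio, p-value and FDR. The deposited log2 ratio and p-value hold the authors' comparison and were not used. Mapper, tool versions, annotation and use of strand are not given in the sources used here. Columns were matched to samples by title.

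Estimated counts were rounded to whole reads (10350665 control, 9102076 HTL treatment). The 13442 genes whose reads summed to 10 or more over both libraries were compared by the two-sided exact binomial test, given the library totals, with Benjamini-Hochberg adjustment over all of them. The cutoffs of the call (log2 ratio 1, adjusted p 0.001) were taken from the study's methods. A prior of 0.5 read, in proportion to library size, entered each log2 ratio. Intervals of ratios are exact Clopper-Pearson at 95%, those of shares are Wilson, and those of differences between genes are Wald intervals of the log odds ratio. They cover counting error only. A test on the reads of 2 libraries compares those libraries, not the conditions. The test was also run on simulated counts with counting error only and with changes larger than those of the 10 genes. That run held no variation between cultures and so cannot speak for it. Without replicates neither DESeq2 nor the quasi-likelihood test could be fitted, so edgeR (4.0.16) and DESeq2 (1.42.0) were used for scaling and for the exact test with an assumed coefficient of variation. The other tools were R 4.3.3, Python 3.11.15, numpy 2.4.6, scipy 1.17.1 and pandas 2.3.3.

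Named were the 10 genes, their near copies, a fixed set of control genes, and from each pathway list (not the marker lists) the largest called rise and fall. Further genes were named after their values were seen, as stated. The listed symbol Gpat3 was matched by gene ID, and the listed genes Thrsp, Hsd17b8 (mitochondrial list), Aqp4, S100b and Olig2 were not analysed here. The 10 genes and the lists were chosen with earlier results of these data known. Gene positions are from GENCODE M1 on NCBIM37 (mm9) and promoters from RefSeq on GRCm38.p6.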

Additional observations from a re-analysis of the deposited data

How the results depend on the processing

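No paired analysis was possible because the study has a single library of each kind, so that none could be left out either. The count of 1 called gene among the 10 became 2 when ratios were centred on transcript length (Fads1 was added), 6 with the adjusted p alone, and 0 at a log2 ratio of at least 2, with the near copies summed, and with an assumed coefficient of variation of 0.2 or 0.4. It stayed at 1 under the other alternatives run. The median of 0.26 became 0.42 after centring on length, and 0.39, 0.39 and 0.35 under TMM, the median of ratios and the upper quartile. The 6 genes past the adjusted p became 2 when the coefficient of variation was taken as 0.1 and 0 when taken as 0.2 or 0.4, alternatives chosen after the data were seen. Over all genes, 1450 calls became 816 with FPKM + 1, 5195 with the adjusted p alone, 2280 with the log2 ratio alone, 287 at a log2 ratio of at least 2, and 120 and 6 with coefficients of variation taken as 0.2 and 0.4. Of the 10 genes, Fasn and Acaca changed sign: Fasn was 0.067, 0.073 and 0.030 under TMM, the median of ratios and the upper quartile and 0.31 after centring on length, and Acaca 0.23 after centring. In the same order of scalings, Nr1h2 was 0.077, 0.084 and 0.041, Mlx 0.066, 0.073 and 0.030, the median of the cytosolic NADPH genes 0.082, 0.088 and 0.045 (0.12 after centring) and that of the control genes 0.077, 0.084 and 0.041 (0.21). The median of the other elongation and desaturation genes (0.19) was 0.41 with no filter, 0.36 at a mean of 50 or more reads, and 0.32, 0.32 and 0.34 under TMM, the median of ratios and centring on length. In the same order of these last 3, that of the acyl-CoA genes (0.055) was 0.18, 0.19 and 0.17 (0.17 at a mean of 50 or more reads) and that of the glycerolipid genes (0.066) 0.20, 0.20 and 0.16. Pairs past the threshold numbered 35 at 0.001 and ran within 1.5 times of that at 0.05. Reads limit Acss2, whose interval is the widest of the 10.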
